A study of Mus musculus with 19 samples.

Results

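The ERK feedback and ETS target genes described here are 9 of the 47643 gene symbols in the deposited table and were chosen by symbol: Etv1, Etv4, Etv5, Spry1, Spry2, Spry4, Spred1, Dusp4 and Dusp6. They were measured by RNA sequencing in cortex of mouse embryos at E14.5 (embryonic day). Mutants carried GFAP::Cre and SmoM2, an always active form of Smoothened, the transducer of Hedgehog signalling, and controls were wildtype. The GFAP promoter drives Cre in radial glia, the neural stem cells of the cortex, so the allele is carried on into their daughter cells. The 19 libraries fell into 4 mutant medial, 5 control medial, 4 mutant dorsal and 6 control dorsal libraries. The protocol text calls the pieces medial or lateral, whereas the tissue labels read medial or dorsal. Values are TPM, transcript levels scaled for gene length and to a fixed total per library, so the sequencing depth is unknown.

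The ERK pathway carries growth factor signals from receptors at the membrane through RAS, RAF and MEK to the ERK kinases. In the developing cortex its best known inputs are fibroblast growth factors, which act on radial glia and pattern the cortex along its axes. Active ERK switches on its own brakes, and the levels of these genes are widely read as a measure of pathway output. Etv1, Etv4 and Etv5 encode the PEA3 group of ETS transcription factors, which are induced by FGF signalling. The Sprouty genes Spry1, Spry2 and Spry4 and the related Spred1 encode inhibitors that act on the pathway at or above RAF. Dusp6 encodes a phosphatase that removes the activating phosphates from ERK in the cytoplasm, and Dusp4 a nuclear phosphatase of the same family. Capicua, a repressor that ERK relieves from DNA, is known to bind short motifs with the letters TGAATGA or TGAATGG at PEA3 genes.

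Promoter sequence from RefSeq (build GRCm38.p6) was matched for 6 of the 9 genes in 8 windows, with none for Etv4, Spry4 and Dusp4. The 250 bases before each start site were searched on both strands. Shown are the windows of the 2 genes that held a Capicua heptamer, with the heptamers in capitals (CCATTCA is TGAATGG on the other strand). The Etv5 window lies at chr16:22438369-22438618 on the minus strand and overlaps no exon in GENCODE M21, and the Dusp6 window at chr10:99262981-99263230 on the plus strand.
Etv5: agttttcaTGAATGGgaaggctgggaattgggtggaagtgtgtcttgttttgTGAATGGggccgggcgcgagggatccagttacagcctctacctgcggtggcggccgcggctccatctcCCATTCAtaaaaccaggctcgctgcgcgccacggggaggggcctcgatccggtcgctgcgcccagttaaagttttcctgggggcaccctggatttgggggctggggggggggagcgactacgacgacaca
Dusp6: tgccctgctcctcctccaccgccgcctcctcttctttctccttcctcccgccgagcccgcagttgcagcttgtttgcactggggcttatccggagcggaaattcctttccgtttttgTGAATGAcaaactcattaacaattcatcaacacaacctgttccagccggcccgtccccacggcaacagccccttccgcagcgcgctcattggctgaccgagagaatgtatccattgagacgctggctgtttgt
The Etv5 window held TGAATGG at 3 places and the Dusp6 window TGAATGA at 1 place. Of all 32851 promoter windows of that length, 2.98% held TGAATGG, 3.14% held TGAATGA and 5.93% held either. The other window of Etv5 and the windows of Etv1, Spry1, Spry2 and Spred1 held none of these letters. The ETS hexamer CCGGAA, held by 12% of all windows, the cAMP response octamer TGACGTCA (1.55%) and the GLI nonamer GACCACCCA (0.225%) had no match in any of the 8 windows. A match or its absence describes the letters of a window only.

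Of the 9 genes, 8 passed the filter of at least 1 TPM in at least 4 libraries and were tested among 13520 genes. Spry4, an inhibitor of the same family as Spry1, reached 1 TPM in 3 of 19 libraries only and was not tested. Gli1, a transcription factor gene switched on by Hedgehog signalling, averaged 35.0 ± 5.44 TPM in mutant dorsal and 0.586 ± 0.268 TPM in control dorsal libraries (SD, n = 4 and 6), and 37.2 ± 9.94 TPM in mutant medial and 0.398 ± 0.135 TPM in control medial libraries (SD, n = 4 and 5), so each library matched its genotype label by this gene. Ptch1, the Hedgehog receptor gene and another target, had log2 changes of 3.18 dorsally and 3.45 medially. Of 7 cortex identity genes, all detected in each group, 4 fell in mutants of both regions: Emx1 (-0.28 dorsally and -0.38 medially), Emx2 (-0.71 and -0.65), Tbr1 (-0.53 and -0.45) and Neurod6 (-0.33 and -0.40), while 1 rose medially. Of all tested genes, 27.6% were called lower and 9.93% higher dorsally, and 30.2% and 9.44% medially. After median-ratio rescaling, which sets each library by the median ratio of its genes, 2 of the 7 fell and 1 rose dorsally, and 3 fell and 1 rose medially. After that rescaling 1998 of all 13520 genes fell and 2079 rose dorsally, and 2341 fell and 2138 rose medially. The medial libraries differed in what they held. Wnt3a, a gene of the cortical hem at the medial edge of the cortex, was at 7.83 TPM in mutant medial library 1 and at 8.76, 7.77 and 2.43 TPM in control medial libraries 2, 3 and 6. It lay at or under 0.206 TPM in the other 5 medial libraries and at or under 0.259 TPM in the dorsal ones. Libraries with Wnt3a at 1 TPM or more, called libraries with hem signal, were thus 1 of 4 mutant and 3 of 5 control medial libraries. The mutant effects on the 9 genes in medial cortex, and the counts of the pathway gene lists there, are also given without these 4. That fit keeps 3 mutant and 2 control medial libraries. Libraries were left out by Wnt3a alone. Control medial library 4, which the fit keeps, had a choroid plexus marker sum of 975 TPM, nearly all of it Ttr. A call lost in it for want of hem tissue cannot be told apart from one lost for want of libraries. Mutant dorsal library 3 stood apart as well, with 3.00 TPM of Fgf8 and 10.7 TPM of Fgf17, ligand genes of the anterior midline, where the other 9 dorsal libraries had Fgf8 listed at 0 and Fgf17 at or under 0.492 TPM.

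The 9 genes spanned a wide range of levels. In control dorsal cortex Dusp4 was highest at 119 ± 16.5 TPM, followed by Spred1 at 72.3 ± 3.80, Dusp6 at 44.4 ± 4.23, Etv5 at 43.5 ± 3.89, Spry2 at 17.7 ± 2.17, Etv1 at 6.39 ± 0.653, Spry1 at 4.68 ± 0.489, Etv4 at 2.76 ± 0.694 and Spry4 at 0.754 ± 0.203 TPM (mean ± SD, n = 6). Dusp6 and Etv5 are neighbours in this order that did not differ beyond their spread. In control medial cortex Dusp4 again led with 216 ± 54.3 TPM, and Spry1 (11.1 ± 6.58) lay above Etv4 (4.59 ± 3.21) and Etv1 (3.53 ± 0.996) in each library (SD, n = 5). Etv4 was above Etv1 in control medial libraries 2, 3 and 6 and below it in the other two. In mutant dorsal cortex Dusp4 (61.6 ± 6.36 TPM) and Spred1 (59.8 ± 4.85 TPM) lay within their spread of each other (SD, n = 4). In mutant medial cortex Spry2 (11.4 ± 0.793 TPM) and Etv5 (11.3 ± 4.29 TPM) did so (SD, n = 4). Spry4 stayed between 0.455 and 1.13 TPM over all 19 libraries.

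**Figure D1:**
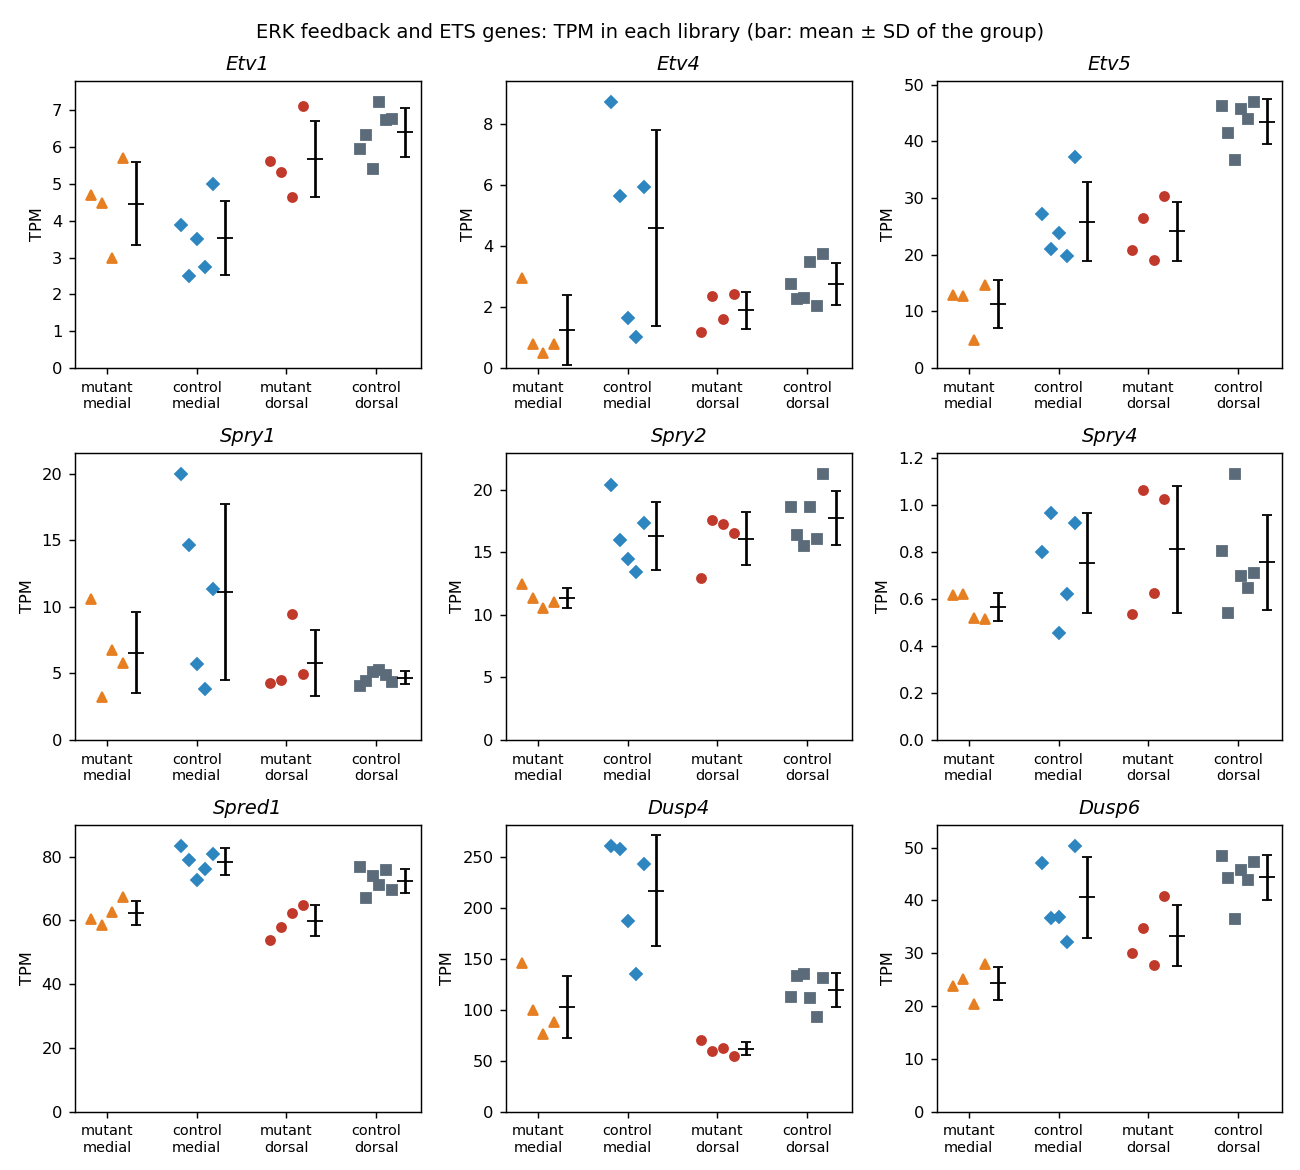
TPM (vertical axis, from 0, a separate scale per gene) of the 9 genes in each library, by group along the horizontal axis; each point is 1 library and the bar beside it the mean ± SD. Etv5 and Dusp4 sit lower in mutants than in controls of the same region, and Etv4 and Spry1 scatter most in medial libraries.

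Etv5, Spred1, Dusp4 and Dusp6 fell in mutants of both regions. In dorsal cortex these were 4 of the 8 tested genes, the other 4 did not pass and none rose, where 27.6% of all tested genes were called lower and 9.93% higher. The mutant and control libraries did not overlap for 3 of the 4, where 17.6% of all tested genes were lower and 7.25% higher without overlap. In medial cortex Etv4 and Spry2 fell as well, which made 6 of 8, and none rose, where 30.2% of all tested genes were called lower and 9.44% higher. The libraries did not overlap for 4 of these 6, where 22.7% of all tested genes were lower and 7.63% higher without overlap. The median log2 change was -0.33 over the 8 genes and -0.10 over all tested genes dorsally, and -0.64 and -0.11 medially. The surplus of lower calls among all genes depended on the scaling: 1343 genes were higher and 3727 lower dorsally as deposited, and 2079 and 1998 after median-ratio rescaling. Medially the split was 1276 higher and 4081 lower as deposited, and 2138 and 2341 after that rescaling. Of the 8 genes, 3 were called lower dorsally (the call of Dusp6 was lost) and 6 medially under each of median-ratio and quantile rescaling. Without the 4 medial libraries with hem signal, 3 of 8 were called lower medially (Etv5, Dusp4 and Dusp6), where 13.7% of all genes tested in that fit were, and 4 dorsally, where 27.2% were.

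Among the ETS factor genes, Etv5 (chromosome 16, 22381309 to 22439719, GRCm38) fell in both regions. It was at 20.8, 26.5, 19.02 and 30.3 TPM in mutant dorsal libraries 1 to 4, against a lowest of 36.7, a median of 44.9 and a highest of 46.9 TPM in control dorsal libraries. Every mutant dorsal library lay below every control dorsal one, and the log2 change was -0.84 ± 0.22 (SE, limma, adjusted p = 0.00637). In mutant medial libraries 1 to 4 it was at 12.8, 12.7, 4.99 and 14.6 TPM, against 27.2, 20.9, 23.9, 19.8 and 37.2 TPM in control medial libraries 2 to 6. The medial groups did not overlap either, with mutant medial library 3 lowest of all 19, and the log2 change was -1.18 ± 0.23 (adjusted p = 0.000620; 0.0253 without the 4 libraries with hem signal).

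Etv4 (chromosome 11, 101769742 to 101785371), the least abundant of the PEA3 genes in dorsal cortex, was called lower in medial cortex. Mutant dorsal libraries had 1.17, 2.36, 1.61 and 2.43 TPM, against a lowest of 2.04, a median of 2.53 and a highest of 3.73 TPM in control dorsal libraries. These groups overlapped and the change of -0.38 ± 0.37 did not pass (adjusted p = 0.442). Mutant medial libraries 1 to 4 had 2.97, 0.791, 0.481 and 0.785 TPM, against 8.71, 5.65, 1.65, 1.03 and 5.93 TPM in control medial libraries 2 to 6. Etv4 was thus high in the 3 control libraries with hem signal and, among mutants, in the 1 library with it. The medial fall was -1.19 ± 0.38 (adjusted p = 0.0184), and it did not pass without the 4 hem libraries (-0.47, adjusted p = 0.167) nor without control medial library 2 (0.0511), control medial 6 (0.0504) or mutant medial 3 (0.0633). With embryo sex as a covariate the change was -1.06 (adjusted p = 0.0699), and in a fit of the medial groups alone it was -1.19 (0.0886).

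Etv1 (chromosome 12, 38779380 to 38870484) was not called in either region. It was at 5.63, 5.33, 4.65 and 7.10 TPM in mutant dorsal libraries, against a lowest of 5.39, a median of 6.53 and a highest of 7.21 TPM in control dorsal libraries (log2 change -0.15, 95% interval -0.47 to 0.16, adjusted p = 0.457). Medially it was at 4.69, 4.47, 2.98 and 5.71 TPM in mutants, against 3.88, 2.50, 3.51, 2.74 and 5.00 TPM in controls (log2 change 0.27, 95% interval -0.06 to 0.61, adjusted p = 0.180). The groups overlapped in both regions. The medial increase passed without mutant medial library 3 (adjusted p = 0.0431) and after quantile normalization (0.0419), and was 0.36 (0.208) without the 4 hem libraries.

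Of the Sprouty and Spred inhibitors, Spred1 (chromosome 2, 117121374 to 117182279) fell by a small amount in both regions. It was at 53.9, 58.0, 62.4 and 64.9 TPM in mutant dorsal libraries, against a lowest of 66.9, a median of 72.4 and a highest of 76.8 TPM in control dorsal libraries, a log2 change of -0.27 ± 0.06 (adjusted p = 0.00103). It was at 60.6, 58.6, 62.7 and 67.4 TPM in mutant medial libraries, against 83.3, 78.8, 72.6, 76.0 and 80.9 TPM in control medial libraries, a log2 change of -0.33 ± 0.06 (adjusted p = 0.000297; 0.0527 without the 4 hem libraries). Neither region's groups overlapped.

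Spry2 (chromosome 14, 105891947 to 105896819) fell in medial cortex. There it was at 12.4, 11.3, 10.6 and 11.1 TPM in mutants, against 20.3, 16.0, 14.46, 13.4 and 17.3 TPM in controls, with no overlap and a log2 change of -0.48 ± 0.11 (adjusted p = 0.00271). Without the 4 hem libraries that change was -0.32 and did not pass (adjusted p = 0.104). In dorsal cortex it was at 13.0, 17.6, 17.3 and 16.5 TPM in mutants, against a lowest of 15.5, a median of 17.5 and a highest of 21.3 TPM in controls, and mutant library 1 alone lay below the controls (log2 change -0.14 ± 0.11, adjusted p = 0.348).

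Spry1 (chromosome 3, 37639947 to 37644598) was called in neither region. Mutant dorsal libraries 1 to 4 had 4.25, 4.50, 9.47 and 4.99 TPM, against a lowest of 4.03, a median of 4.66 and a highest of 5.29 TPM in control dorsal libraries. Mutant dorsal library 3, the one with Fgf8 and Fgf17, stood above all other dorsal libraries, and without it the log2 change was -0.02 in place of 0.20 ± 0.34 (adjusted p = 0.969 and 0.679). Mutant medial libraries had 10.6, 3.20, 6.74 and 5.75 TPM, against 19.97, 14.7, 5.74, 3.80 and 11.4 TPM in control medial libraries 2 to 6 (log2 change -0.57 ± 0.35, adjusted p = 0.210). In each genotype the libraries with hem signal were the highest, and without all 4 of them the change was 0.08 (adjusted p = 0.861). Without control medial library 5 alone the fall passed (-0.86, adjusted p = 0.0379). The annotated gene Gm42922 overlaps Spry1 on the opposite strand, and the use of strand in counting is not given in the sources used here.

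Both ERK phosphatase genes fell in both regions. Dusp4 (chromosome 8, 34807297 to 34819894) was at 69.96, 59.1, 62.5 and 54.9 TPM in mutant dorsal libraries, against a lowest of 92.9, a median of 122 and a highest of 135 TPM in control dorsal libraries. The dorsal groups did not overlap and the log2 change was -0.93 ± 0.18 (adjusted p = 0.000728). In mutant medial libraries 1 to 4 it was at 146, 99.97, 76.4 and 87.8 TPM, against 260.4, 257, 186, 135 and 243 TPM in control medial libraries 2 to 6. Mutant medial library 1, the one with hem signal, lay above control medial library 5, and the log2 change was -1.07 ± 0.19 (adjusted p = 0.000300). Without the 4 hem libraries it was -0.85 (adjusted p = 0.00367).

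Dusp6 (chromosome 10, 99263231 to 99267489) was at 30.1, 34.7, 27.8 and 40.8 TPM in mutant dorsal libraries, against a lowest of 36.5, a median of 45.1 and a highest of 48.4 TPM in control dorsal libraries. Mutant library 4 overlapped the controls, and the log2 change was -0.41 ± 0.12 (adjusted p = 0.0147). This call was lost without mutant dorsal library 1 (0.0526) or 3 (0.0697), after median-ratio rescaling (0.0613) and after quantile normalization (0.0618). In medial cortex Dusp6 was at 23.7, 25.2, 20.3 and 27.9 TPM in mutants, against 47.0, 36.7, 36.9, 32.1 and 50.3 TPM in controls. These groups did not overlap, and the log2 change was -0.71 ± 0.13 (adjusted p = 0.000368; 0.0412 without the 4 hem libraries).

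**Figure D2:**
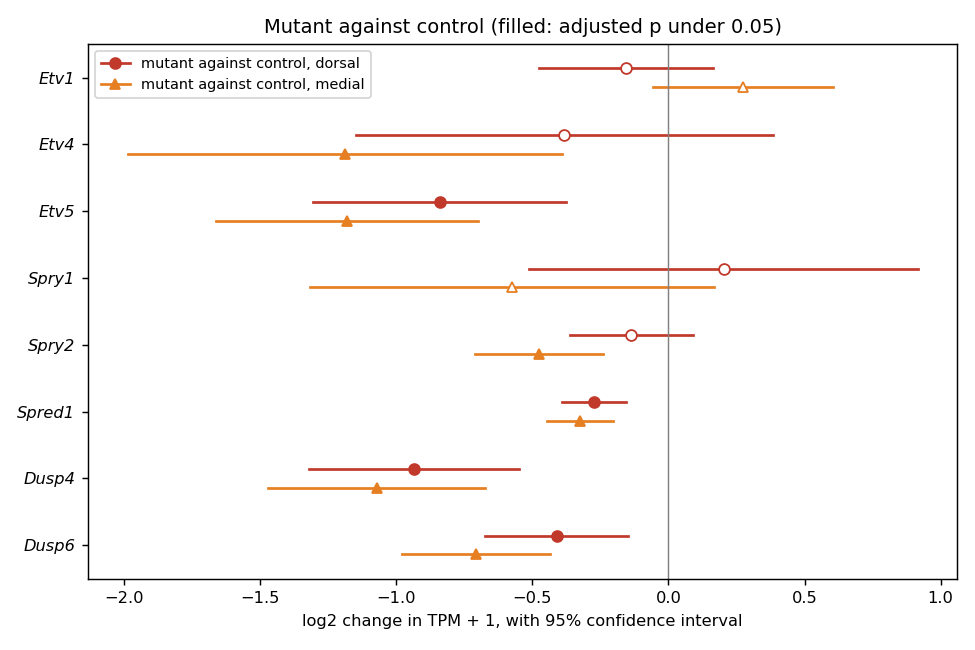
Log2 change in TPM + 1, mutant against control, with 95% confidence interval (horizontal axis) for the 8 tested genes (vertical axis), as circles for dorsal and triangles for medial cortex; filled symbols have an adjusted p under 0.05. Etv5, Spred1, Dusp4 and Dusp6 lie left of 0 in both regions, and Etv4 and Spry2 pass in medial but not in dorsal cortex.

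No difference in the mutant effect between the regions passed for any of the 8 tested genes. Among all 13520 genes the test of the difference (medial minus dorsal) called 1 gene (0.0074%) in the main fit, which has no blocks. With libraries of the same number and genotype paired as embryos, it called 24 higher and 25 lower with a random block. With a fixed block it called 7 and 9. None of the 8 genes was called in any of these fits or under any other alternative, where the lowest adjusted p was 0.273, for Etv1. In the main fit Spry2 had the lowest unadjusted p, with a difference of -0.34 ± 0.16 (unadjusted p = 0.0425, adjusted p = 0.99996). It is the only gene of the 8 with an unadjusted p under 0.05 there. For Spred1 the difference was -0.05, with a 95% interval from -0.22 to 0.12, and for Dusp4 -0.14 with an interval from -0.69 to 0.42. The intervals of Etv4 (-1.91 to 0.30) and Spry1 (-1.80 to 0.25) were wide. Without the 4 hem libraries the difference was -0.09 for Etv4, -0.12 for Spry1 and -0.07 for Dusp6, against -0.81, -0.78 and -0.30 with all libraries, and it turned positive for Spred1 (0.034) and Dusp4 (0.083).

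Medial cortex was set against dorsal cortex of the same genotype. Changes, adjusted p and shares are from the main fit, which has no blocks, except where another fit is named. In blocked fits, libraries of the same number and genotype were paired as embryos. With the embryo as a random block, 2490 of all tested genes were higher and 2793 lower medially in mutants, against 1085 and 1460 in the main fit. In controls these were 3588 and 3026, against 2373 and 2014. The region a gene favoured differed within this set: Dusp4 was higher medially in both genotypes, whereas Etv5 was lower medially in both. In mutants 1 of 8 genes was higher and 3 were lower medially, where 8.03% and 10.8% of all tested genes were so called. Medial and dorsal mutant libraries did not overlap for Dusp4, higher, and for Etv5 and Spry2, lower, where 7.11% and 8.05% of all tested genes were higher and lower without overlap. In controls 2 were higher and 2 lower, where 17.6% and 14.9% of all tested genes were so called. Control libraries did not overlap for Dusp4, higher, and Etv1, lower, where the shares of all tested genes were 11.1% and 9.39%. In mutants Dusp4 had a log2 change of 0.69 ± 0.20 (adjusted p = 0.0231) and was higher medially in 4 of 4 embryos, and in controls 0.82 ± 0.17 (adjusted p = 0.00152), higher in 5 of 5. Without the 4 hem libraries the control change of Dusp4 was 0.42 and did not pass (adjusted p = 0.0882), while the mutant one was 0.51 (adjusted p = 0.0315). The mutant call was lost without mutant dorsal library 2 (0.0712) or 4 (0.0737) or mutant medial library 1 (0.0772).

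Etv5 was lower in medial than in dorsal cortex by -1.10 ± 0.24 in mutants (adjusted p = 0.00585, 4 of 4 embryos) and by -0.76 ± 0.21 in controls (adjusted p = 0.00902, 5 of 5 embryos). Etv1 was lower medially in controls, -0.73 ± 0.14 (adjusted p = 0.000949, 5 of 5 embryos), with no overlap of the groups. In mutants Etv1 changed by -0.30 ± 0.17, lower in 4 of 4 embryos, which did not pass (adjusted p = 0.222) but did with the embryo as a random block (0.0404) or a fixed block (0.0426). Spry2 and Dusp6 were lower medially in mutants (-0.46 ± 0.12, adjusted p = 0.0121, and -0.43 ± 0.14, adjusted p = 0.0327; each in 4 of 4 embryos) and did not pass in controls (adjusted p = 0.401 and 0.403). Neither gene's difference between the genotypes passed, as given above. The mutant call of Spry2 was lost without mutant dorsal library 2 (0.0528). The mutant call of Dusp6 was lost without mutant dorsal library 2 (0.0975) or 4 (0.129) or mutant medial library 1 (0.0648) or 3 (0.123), and without a filter on low values (0.0596). In a fit of the mutant groups alone none of these 4 mutant calls was kept (adjusted p from 0.0542 for Spry2 to 0.0778 for Dusp6), but there 0 of 12867 genes were called and the log2 changes were the same. Without the 4 hem libraries Etv5 was called lower medially in mutants (-1.19, adjusted p = 0.0158) and in controls (-0.96, 0.0438), Etv1 in controls (-0.84, 0.0146), and Spry2 (-0.50, 0.0168) and Dusp6 (-0.43, 0.0454) in mutants.

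Spry1 was higher in medial than in dorsal control cortex by 0.90 ± 0.32 (adjusted p = 0.0379), in 4 of 5 embryos. The call was lost with the embryo as a fixed block (0.0582) and without any 1 of the 6 control dorsal libraries (0.0515 to 0.0642) or control medial library 2 (0.126), 3 (0.109) or 6 (0.0762). Without all 4 hem libraries the change was 0.01. Spred1 differed between regions by 0.11 ± 0.05 in controls, higher medially in 5 of 5 embryos. It did not pass (adjusted p = 0.109) but did with the embryo as a random (0.0174) or fixed block (0.0312). Etv4 had a log2 change of 0.36 ± 0.34 in controls (adjusted p = 0.467) and, without the hem libraries, -0.68 (adjusted p = 0.0551). In mutants its change of -0.45 ± 0.40 did not pass (adjusted p = 0.480), nor did it without mutant medial library 1 alone. In the fit without all 4 hem libraries the mutant change was -0.76 and passed (adjusted p = 0.0231).

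**Figure D3:**
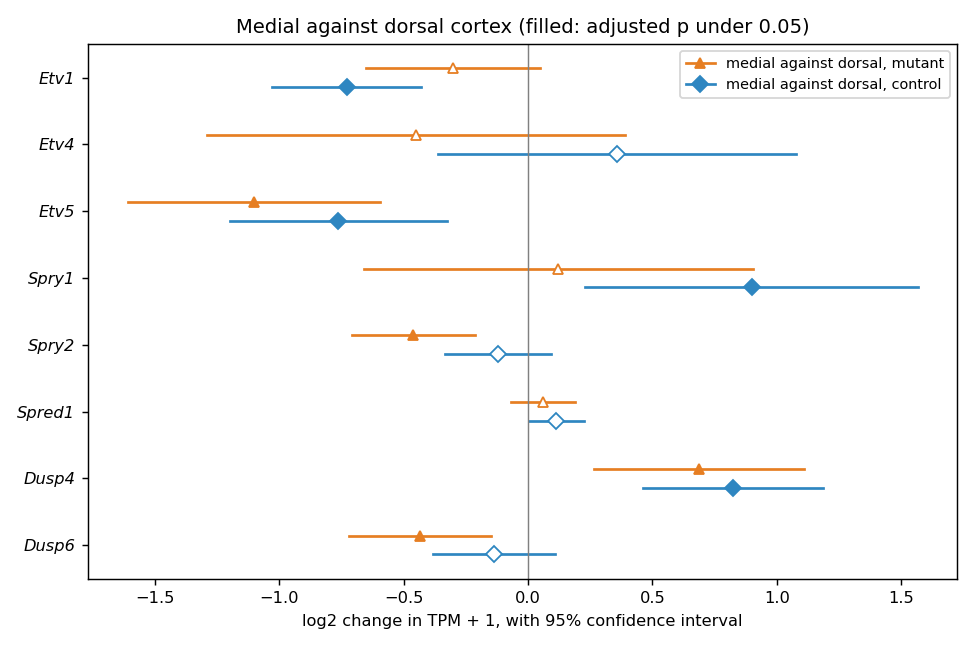
Log2 change in TPM + 1, medial against dorsal cortex, with 95% confidence interval (horizontal axis) for the 8 tested genes (vertical axis), as triangles for mutants and diamonds for controls; filled symbols have an adjusted p under 0.05. Dusp4 lies right of 0 and Etv5 left of 0 in both genotypes.

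Several of the genes were highest where hem genes were highest. Wnt8b, a hem gene, was at 23.7 TPM in mutant medial library 1 and at 0.0765, 0.598 and 0.144 TPM in mutant medial libraries 2 to 4, against 22.8, 17.6, 1.88, 0.352 and 8.21 TPM in control medial libraries 2 to 6. Spry1, Spry2, Etv4 and Dusp4 were highest in the same libraries among the medial libraries of each genotype, as their values above show. Il17rd, which encodes a membrane inhibitor of FGF signalling, did the same, with 4.07, 1.38, 1.99 and 2.48 TPM in mutant medial libraries 1 to 4, against 13.5, 10.8, 5.66, 5.01 and 10.5 TPM in control medial libraries 2 to 6. In dorsal cortex Il17rd was at 1.63, 1.64, 5.93 and 1.64 TPM in mutants, against a lowest of 3.15 and a highest of 4.42 TPM in controls. Mutant dorsal library 3 was thus the high one for Il17rd and Spry1, but not for Etv5 (19.02 TPM) or Dusp6 (27.8 TPM), of which it had the lowest dorsal values.

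**Figure D4:**
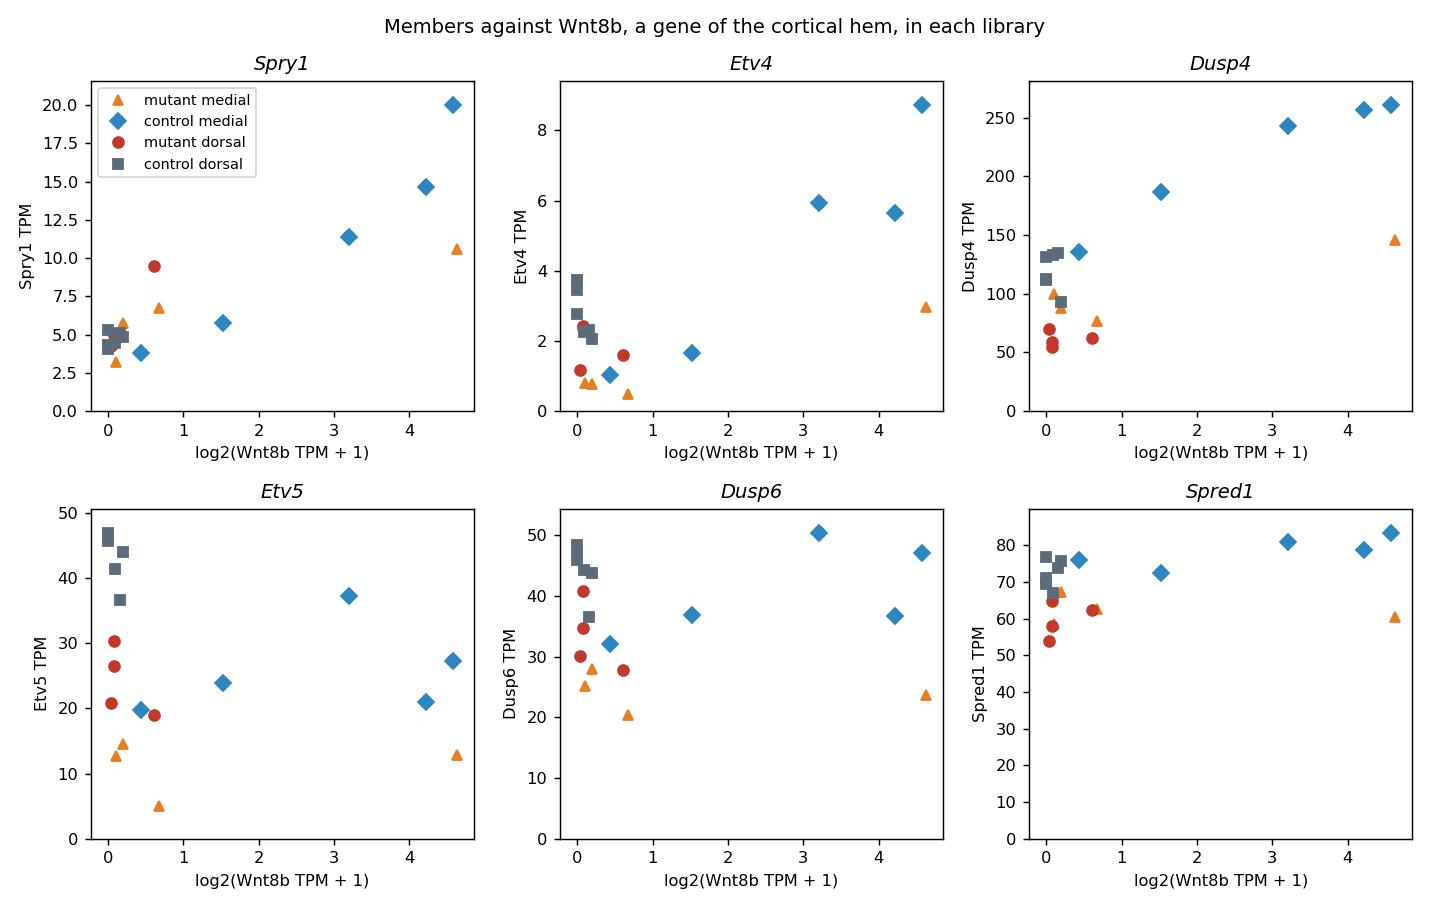
TPM of 6 of the genes (vertical axis, from 0) against log2(TPM + 1) of Wnt8b (horizontal axis), 1 point per library, by group. Spry1, Etv4 and Dusp4 are higher at the right among medial libraries of the same genotype, while Etv5, Dusp6 and Spred1 stay lower in mutants along the axis.

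Fgf17 marked the same control libraries but not the mutant one. It was at 0.167, 0.306, 0.156 and 0.192 TPM in mutant medial libraries 1 to 4, against 9.94, 6.66, 0.281, 0.352 and 2.14 TPM in control medial libraries 2 to 6. Mutant medial library 1 therefore carried Wnt3a and Wnt8b at the level of control libraries 2 and 3 with Fgf17 at the level of libraries without hem signal. Its Spry1 (10.6 TPM) lay below those of control medial libraries 2, 3 and 6, and so did its Etv4, Dusp4 and Il17rd. With 1 such mutant library, a mutant effect within hem-bearing tissue has no replicate check. In bulk tissue, fewer cells of a type and less RNA per cell cannot be told apart.

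Upstream of these genes, the ligand gene Fgf15 rose in both regions while no other tested FGF ligand gene did. Fgf15 averaged 66.4 ± 12.8 TPM in mutant dorsal and 0.416 ± 0.172 TPM in control dorsal libraries (SD, n = 4 and 6), and 73.7 ± 16.3 TPM in mutant medial and 0.591 ± 0.454 TPM in control medial libraries (SD, n = 4 and 5). Fgf18 fell by 0.56 dorsally and 0.53 medially on the log2 scale (adjusted p = 0.00701 and 0.0117). Fgf2 changed by -0.14 dorsally (adjusted p = 0.407) and fell by 0.45 medially (0.00858). Of 14 FGF ligand genes listed, 4 passed the filter. Of 14 tested growth factor receptor genes, 2 rose and 7 fell dorsally, and 2 rose and 5 fell medially. Of all tested genes, 9.93% rose and 27.6% fell dorsally, and 9.44% rose and 30.2% fell medially. After median-ratio rescaling 2 receptor genes rose and 5 fell in each region, where 2079 of all 13520 genes rose and 1998 fell dorsally, and 2138 and 2341 medially. Fgfr1, the FGF receptor gene that fell in both regions, averaged 17.1 ± 1.61 TPM in mutant dorsal and 24.4 ± 1.61 TPM in control dorsal libraries, and Fgfr3, which rose in both, 80.4 ± 11.9 and 57.7 ± 9.85 TPM. Egfr rose by 1.53 dorsally and 1.45 medially, whereas Erbb2 changed by -0.56 and -0.43 and Ntrk3 by -0.81 and -0.97 (each passed).

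The kinase cascade itself moved little. Of its 22 genes, 5 fell dorsally and 7 medially and none rose, where 27.6% and 30.2% of all tested genes were called lower. The medians were -0.10 and -0.12 where the median of all tested genes was -0.10 and -0.11. After median-ratio rescaling 3 fell and 1 rose dorsally, and 4 fell and 1 rose medially. In that setting 1998 of all 13520 genes fell dorsally and 2341 medially. Those with the lowest adjusted p were the adaptor genes Grb2 (-0.27 and -0.37), Frs3 (-0.58 and -0.53) and Gab1 (-0.42 and -0.38) and the scaffold gene Ksr1 (-0.27 and -0.33), dorsal value first. Map2k1 and Map2k2, which encode MEK, and Mapk3, which encodes an ERK kinase, were called in neither region.

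Other feedback genes were called lower at about the share of all genes. Of 16 tested, 5 fell and none rose dorsally, and 5 fell and 1 rose medially, with medians of -0.18 and -0.15, where 27.6% and 30.2% of all tested genes were called lower. After median-ratio rescaling 2 fell and 1 rose dorsally, and 3 fell and 1 rose medially. In that setting 1998 of all 13520 genes fell and 2079 rose dorsally, and 2341 fell and 2138 rose medially. Dusp7, a cytoplasmic ERK phosphatase gene close to Dusp6, averaged 9.09 ± 1.43 TPM in mutant dorsal and 13.9 ± 0.705 TPM in control dorsal libraries, and 11.04 ± 2.72 TPM in mutant medial and 18.5 ± 1.39 TPM in control medial libraries, without overlap in either region (log2 change -0.57 and -0.72, adjusted p = 0.000867 and 0.000149). Il17rd changed by -0.45 dorsally (adjusted p = 0.225) and fell by 1.51 medially (0.000641). Spred3 fell by 0.37 and 0.64 and Errfi1, an EGF receptor inhibitor gene, by 0.26 and 0.22. Spred2, the paralogue of Spred1, was called in neither region (-0.11 dorsally, adjusted p = 0.425; adjusted p = 0.982 medially).

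Of 13 tested immediate early genes, which respond to ERK within minutes, 3 fell dorsally and none rose, and 6 fell and 2 rose medially. These counts became 2 and 0 dorsally and 4 and 3 medially after median-ratio rescaling. As deposited, 27.6% of all tested genes fell and 9.93% rose dorsally, and 30.2% fell and 9.44% rose medially. After median-ratio rescaling 1998 of all 13520 genes fell and 2079 rose dorsally, and 2341 fell and 2138 rose medially. Myc averaged 6.77 ± 0.269 TPM in mutant dorsal and 10.8 ± 0.801 TPM in control dorsal libraries (log2 change -0.60, adjusted p = 6.61e-05) and fell by 0.39 medially (0.00313). Ier5 fell by 0.37 and 0.27 and Junb by 0.24 and 0.33. Fos, the classical immediate early gene, changed by -0.29 dorsally (adjusted p = 0.116) and fell by 0.69 medially (0.00144). Of 16 tested other ETS factors and Capicua partners, 4 fell dorsally, and 3 fell and 1 rose medially, and 3 fell and 3 rose medially after that rescaling. Elk3 (-0.71 and -0.79), the ETS repressor gene Erf (-0.55 and -0.46) and Atxn1 (-0.58 and -0.34), which encodes a Capicua partner, fell in both regions, and Ets2 rose by 0.31 medially. Cic, the gene of Capicua, did not pass (-0.08 and -0.15, adjusted p = 0.738 and 0.485).

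Fewer of these pathway genes were called in medial cortex without the 4 hem libraries, as were fewer of all genes (6.37% higher and 13.7% lower). Of the receptor genes 1 rose and 4 fell there, of the cascade genes 2 fell, of the other feedback genes 2 fell, of the immediate early genes 2 fell and of the other ETS factors and Capicua partners 1 fell. Fgf15 (5.70), Fgfr1 (-0.41), Dusp7 (-0.56), Il17rd (-1.12), Myc (-0.33) and Elk3 (-0.65) were among those that passed. Fgf2 (-0.37, adjusted p = 0.146), Fgfr3 (0.60, 0.0542), Erf (-0.44, 0.0557), Atxn1 (-0.38, 0.0623) and Ets2 (0.35, 0.0511) did not pass, nor did Junb (-0.31, 0.0603), Spred3 (-0.43, 0.142), Errfi1 (-0.17, 0.233), Gab1 (-0.31, 0.153) or Ksr1 (-0.29, 0.0894).

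Cell type markers moved beside these genes. The counts stand beside 9.93% of all tested genes higher and 27.6% lower dorsally, and 9.44% higher and 30.2% lower medially. Counts after median-ratio rescaling stand beside 2079 of all 13520 genes higher and 1998 lower dorsally, and 2138 and 2341 medially. The 10 cell cycle markers all rose in both regions, with summed levels of 2024 to 2676 TPM in mutant dorsal and 1197 to 1448 TPM in control dorsal libraries. In medial cortex 9 of these 10 rose without the hem libraries. Of 12 projection neuron markers, 9 fell in each region and none rose; after median-ratio rescaling 6 fell dorsally and 8 medially, and without the hem libraries 8 fell medially. Their sum ran from 3853 to 5654 TPM in mutant dorsal and from 6019 to 6747 TPM in control dorsal libraries, and from 2779 to 3533 TPM in mutant medial and from 3991 to 5123 TPM in control medial libraries. Of 16 radial glia markers, the cells in which ERK feedback genes are commonly studied, 5 rose and 5 fell dorsally, and 3 rose and 3 fell medially; after median-ratio rescaling 6 rose and 3 fell dorsally. Their sum was 2860 to 3087 TPM in mutant dorsal and 2992 to 3355 TPM in control dorsal libraries, and 3349 to 3794 TPM in mutant medial and 3686 to 4563 TPM in control medial libraries. Of 10 tested interneuron markers, 3 fell dorsally and 7 medially, and of 6 microglia markers 4 fell dorsally and none medially. Of 6 tested oligodendrocyte lineage markers 2 rose in each region. Of 8 endothelial markers, 1 fell dorsally (none after median-ratio rescaling) and none medially, and of 8 pericyte and meninges markers 2 fell dorsally and 1 medially. Of 8 intermediate progenitor markers, 4 rose and 2 fell dorsally and 2 rose and 2 fell medially. None of the 6 erythroid markers passed in either region, and of 4 tested choroid plexus markers 1, Otx2, fell medially. The sum of the choroid plexus markers reached 975 TPM in control medial library 4, nearly all of it Ttr, against at most 167 TPM in any mutant medial library. Of 7 tested hem and medial markers 2 fell in each region, Dmrt3 and Emx2. Without the hem libraries Emx2 did not pass medially (-0.60, adjusted p = 0.151). Embryo sex, read from Xist and Ddx3y, was male in all mutant libraries, and female in 3 of 5 control medial and 3 of 6 control dorsal libraries. The part of cell composition in the changes of the 9 genes was not tested.

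The genes with the most similar levels over the 19 libraries differed from member to member, by Pearson's r of log2(TPM + 1), a description over libraries that share embryos and groups. Nearest to Etv5 were Syp (0.97), Apbb1 (0.97) and Ldhb (0.96). Nearest to Dusp6 were Ogfrl1 (0.95), Prmt2 (0.94) and Ctnnbip1 (0.94), and to Dusp4 Rnf122 (0.97), 2510009E07Rik (0.96) and Acadvl (0.96). Spry1 was closest to Zic4 (0.96), Lect1 (0.93) and Otx2 (0.91), genes of the dorsal midline among them. Spred1 was closest to Wasf3 (0.96), Foxo3 (0.96) and Aplp2 (0.96), and Etv4 to Tspan13 (0.91), Pgm2 (0.90) and Atp1b1 (0.89). Etv1 (Fam181b, 0.85, Ntm, 0.84, and Tceal6, 0.84) and Spry2 (Rab9b, 0.87, 9030612E09Rik, 0.87, and Ogfrl1, 0.85) had less close neighbours. Among the 8 genes themselves, after the group means were taken out, Etv1 and Etv5 varied together most (r = 0.89 over 19 libraries), followed by Etv1 and Dusp6 (0.84) and Etv5 and Dusp6 (0.83). Etv4 varied most with Spry2 (0.81), Spry1 (0.77) and Dusp4 (0.77). These genes did not form a separate set. Spry2 had an r of 0.58 with Spry1 and 0.45 with Dusp4, against 0.61 with Dusp6, and Etv4 had 0.59 with Dusp6 and 0.49 with Etv5. The r of Spry1 was 0.03 with Etv5 and 0.05 with Etv1.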

How the data were processed

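Per the labels' protocols, RNA was purified with the RNeasy Micro Kit and libraries came from the TruSeq Stranded Total RNA Kit. The authors deposited 1 table of TPM values on build mm10, per the submitters' processing notes, with 1 column per library summing to 1000000. For the aligner, quantifier, annotation and strand setting, the details were not given in the sources used here.

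Libraries were grouped by title. No label states whether a group's libraries are separate embryos; p-values therefore reflect only spread among libraries, possibly technical. Same-numbered dorsal and medial libraries of 1 genotype deviated together from their group means (r from 0.549 to 0.795 in 9 pairs) and were treated as embryos in blocked fits, a pairing read from the data. The numbers are those of the titles; the descriptions number the control medial libraries from 1 to 5 where the titles have 2 to 6, and paired by description r ran from -0.438 to 0.0469 in 5 pairs. Each of the 9 medial libraries was closest to the dorsal library of its own title number. Across genotypes r ran from -0.436 to 0.138 in 7 pairs, so numbers do not pair mutants with controls.

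The 13520 genes reaching 1 TPM in 4 or more libraries were fitted on log2(TPM + 1) with limma 3.58.1 (R 4.3.3, statmod 1.5.0), 1 mean per group over all 19 libraries, with trend and robust settings. Fold changes on this scale understate those of low genes. Adjusted p follows Benjamini and Hochberg over all tested genes per comparison, with a threshold of 0.05. The fit was checked on simulated data with independent noise per library and shifts in mutant dorsal libraries only. That check covered mutant against control in dorsal cortex and no comparison between regions. The alternatives were a pseudocount of 0.1, no filter, median-ratio and quantile rescaling, plain moderation, fits of the compared groups alone, 3 blocks, sex as a covariate and leaving out each library. Leaving out the 4 medial libraries with Wnt3a at 1 TPM or more and pairing by description were added after the data were seen. The genes and lists were chosen with earlier results of these data known. The 9 genes are always named, with up to 4 genes per list by lowest adjusted p and the 3 most similar genes by Pearson's r; Gli1, Ptch1 and Fgf15 are named as checks, and Map2k1, Map2k2, Mapk3, Fgfr3, Spred2, Cic, Fgf8 and Wnt3a were named after their values were seen. Positions are 1-based from GENCODE M21 (GRCm38, the same assembly as mm10). Python 3.11.15 and matplotlib 3.10.9 were used.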

Additional observations from a re-analysis of the deposited data

Results flagged for a closer look

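Each of the 9 genes was looked at for 1 library far from the others in each of the 4 groups, 36 sets in all, of which chance would flag about 1 in 20. In 2 sets a library stood apart. Spry1 in mutant dorsal library 3, at 9.47 TPM, was separated from the next library by 0.859 of the range of its group. The same library was the dorsal one with the highest Fgf8, Fgf17, Il17rd and Otx2. Etv4 in mutant medial library 1, at 2.97 TPM, was separated by 0.875 of the range of its group. This was the mutant medial library with the highest Wnt3a and Wnt8b.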

How the results depend on the processing

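Depth is unknown, so no limit from counting can be given, and Spry4 and Etv4 are the genes most exposed to low values. In dorsal cortex the count of genes lower (4) and higher (0) in mutants stayed within 1.5 times under every alternative run. In medial cortex 1 gene, Etv1, was also called higher after quantile normalization (1) and with the title number as a fixed replicate block (1), and 0 to 1 were higher when 1 library was left out; 3 were lower without the medial libraries with Wnt3a at 1 TPM or more. Between regions in controls, 1 gene was higher without a filter on low values and 0 without the Wnt3a libraries, and 1 to 2 when 1 library was left out. Between regions in mutants, fits of these groups alone gave 0 higher and 0 lower, as for all 12867 genes in that fit, and leaving out 1 library gave 0 to 1 higher and 1 to 3 lower. The replicate block with the embryo as a fixed effect changed 3 calls between regions, those of Spry1 and Spred1 in controls and Etv1 in mutants, as given above, and the random block the last 2 of these; blocks by embryo changed no other call. In single genes the sign turned for Spry1 dorsally without mutant dorsal library 3 (-0.024 to 0.31 when 1 library was left out) and medially without the Wnt3a libraries (0.085). It also turned for Spry1 between regions in mutants without mutant medial library 1 or without the Wnt3a libraries (-0.11 in both; -0.11 to 0.37 when 1 library was left out), for Etv4 between regions in controls without the Wnt3a libraries (-0.68), and in the difference of effects without them for Spred1 (0.034) and Dusp4 (0.083). The causes were not tested.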
